A study of Mus musculus with 6 samples.

Results

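The NR4A orphan nuclear receptor genes (Nr4a1, Nr4a2 and Nr4a3) and the EGR zinc finger genes (Egr1, Egr2 and Egr3) were taken by symbol from the deposited expression table. Of the 6 genes listed, 5 had a row among the 13185 rows of the table, and all 5 were among the 12554 genes tested. Egr3 had no row and was not analysed here. After panobinostat, Nr4a1, Nr4a2 and Egr1 rose, Nr4a3 fell, and Egr2 did not pass the test, so that the 3 NR4A genes moved in opposite directions.

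The libraries came from a mouse leukaemia of the T cell lineage, T-ALL, which the labels call Notch1-driven and whose cells they also call oncogenic lymphocytes. Panobinostat inhibits histone deacetylases (HDACs), the enzymes that take acetyl groups off histones. In 3 libraries the cells had been given 25 nM panobinostat for 2 h, and 3 libraries came from cells left untreated. All 6 cultures were kept on plate-bound antibody to CD3 at 2.5 ug/mL, with the cytokine IL-2 at 100 U/mL. The antibody binds the T cell receptor complex, so both groups were under receptor stimulation. The labels gave neither the animals of origin nor the Notch1 allele, and did not say whether libraries of a group were separate cultures. The p-values thus rest on a spread between libraries that may be technical.

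NR4A and EGR genes are immediate early genes, transcribed within minutes of a stimulus without new protein synthesis. In T cells, signals from the T cell receptor reach them through the RAS-ERK kinases and through calcium, calcineurin and NFAT. NR4A proteins bind DNA as monomers, dimers or, for Nr4a1 and Nr4a2, as heterodimers with RXR receptors, and take part in thymocyte deletion and in T cell exhaustion. EGR proteins bind GC-rich sites, act in thymocyte selection and anergy, and are held in check by the corepressors Nab1 and Nab2.

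Values were log2 CPM (counts per 1000000 reads), and 1 CPM was worth between 6.03 and 7.76 reads by an estimate from tied low values. Library totals by this estimate were between 5990000 and 7710000 reads, with 101 or more reads per library behind each of the 4 genes that changed. On the first principal component untreated library 1 scored -25.7, the other untreated libraries -48.0 and -41.0, and the treated libraries 35.4 to 43.2. All 12 markers listed for the T cell lineage had a row. Of the markers listed for other cell types, 7 of 7 erythroid, 9 of 10 myeloid, 5 of 6 B cell, 1 of 6 fibroblast and endothelial and 0 of 4 NK cell markers had a row.

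To show what the 3 NR4A genes share in front of their start sites, the upstream sequence is given 5′ to 3′ on the gene's strand (RefSeq, GRCm38.p6). Capitals mark the pentamer TGACG on either strand, which also forms part of TGACGTCA, the cAMP response element bound by CREB proteins. In Egr2 they also mark a CArG box, the element bound by serum response factor.
Nr4a1 (chr15:101266596-101266845, plus strand): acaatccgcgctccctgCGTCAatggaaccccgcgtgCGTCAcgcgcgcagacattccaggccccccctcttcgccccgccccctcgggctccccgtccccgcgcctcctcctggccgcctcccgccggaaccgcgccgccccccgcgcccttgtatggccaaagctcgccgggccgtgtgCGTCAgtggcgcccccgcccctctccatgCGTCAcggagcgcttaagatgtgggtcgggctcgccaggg
Nr4a2 (chr2:57124004-57124253, minus strand): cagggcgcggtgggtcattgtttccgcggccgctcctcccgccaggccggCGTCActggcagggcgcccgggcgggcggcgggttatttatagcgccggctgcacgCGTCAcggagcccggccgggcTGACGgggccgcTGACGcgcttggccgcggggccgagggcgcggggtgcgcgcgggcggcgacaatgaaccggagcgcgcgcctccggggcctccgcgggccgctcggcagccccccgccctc
Nr4a3 (chr4:48045055-48045152, plus strand): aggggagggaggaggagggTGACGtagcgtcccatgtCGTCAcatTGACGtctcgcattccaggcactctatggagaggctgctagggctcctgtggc
Egr2 (chr10:67537619-67537868, plus strand): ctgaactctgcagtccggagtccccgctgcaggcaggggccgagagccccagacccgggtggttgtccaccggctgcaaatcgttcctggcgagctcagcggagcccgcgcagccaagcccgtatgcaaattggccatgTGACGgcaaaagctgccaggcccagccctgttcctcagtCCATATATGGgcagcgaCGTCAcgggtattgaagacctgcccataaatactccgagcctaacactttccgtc
The 4 stretches lie upstream of a RefSeq start and hold no annotated exon. Those of Nr4a1 and Egr2 lie inside the gene spans given below, not before the outermost annotated start. That of Nr4a3 is shorter because an annotated exon begins within its window. Counted over RefSeq's whole window around the start site, the Nr4a1, Nr4a2 and Nr4a3 promoters each held 4 copies of the pentamer. Of 32851 windows of the same length, 0.23% held 4 or more and 20.81% held at least 1. Egr2 had 5 windows, and the one shown was picked because none held more pentamers. It held 2 copies and 1 CArG box, an element found in 1.63% of windows. The Egr2 windows starting at 67535249 and 67537316 held 0 copies of the pentamer, and the former also held 0 CArG boxes. TGACGTCA itself, the EGR site GCGTGGGCG and the NR4A site AAAGGTCA, each searched on both strands, were at 0 copies in the windows of these 4 genes. The Nr4a2 window held 1 MEF2 element, found in 3.19% of windows. The number of pentamers was thus the same in the NR4A genes that rose and in the one that fell, and a match in a window is a description, not a bound site.

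Nr4a1, which encodes Nur77 and whose level reports recent receptor signalling, changed the most. It stood at 4.70, 4.05 and 3.95 log2 CPM in untreated libraries 1 to 3 and at 5.93, 6.28 and 6.48 in treated libraries 1 to 3. All treated libraries lay above all untreated libraries, with a gap of 1.23 between the groups on the log2 scale. The means were 6.23 ± 0.28 in treated and 4.23 ± 0.40 in untreated libraries (SD, n = 3), a log2 fold change of 2.00 (SE 0.22, 95% interval 1.49 to 2.50, limma adjusted p = 0.000755), or 3.99-fold. Estimated reads behind these values were 101 to 201 in untreated and 367 to 679 in treated libraries. Only 87 of the 12554 tested genes had a larger log2 fold change. Among 1976 genes within 0.5 log2 CPM of its mean level, 13 (0.7%) had a larger absolute change.

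Nr4a2, which encodes Nurr1, was the most abundant of the 3 NR4A genes in both groups. Its untreated values were 6.34, 5.93 and 5.95 log2 CPM and its treated values 6.86, 6.94 and 6.93. The groups did not overlap, and the treated libraries had an SD of 0.04. Nr4a2 rose by 0.84 on the log2 scale (SE 0.12, 95% interval 0.56 to 1.11, limma adjusted p = 0.00187), or 1.78-fold, and 8.5% of 1370 genes of like level changed more.

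Nr4a3, which encodes NOR-1, went the other way. It stood at 6.20, 5.83 and 5.84 log2 CPM in untreated libraries and at 4.91, 4.70 and 4.89 in treated libraries. Every treated library was below every untreated library, with a gap of 0.92. Its log2 fold change was -1.13 (SE 0.13, 95% interval -1.42 to -0.83, limma adjusted p = 0.000889), a level 2.18-fold lower, and 5.4% of 1907 genes of like level changed more. The estimated reads were 379 to 572 in untreated and 177 to 225 in treated libraries.

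**Figure D1:**
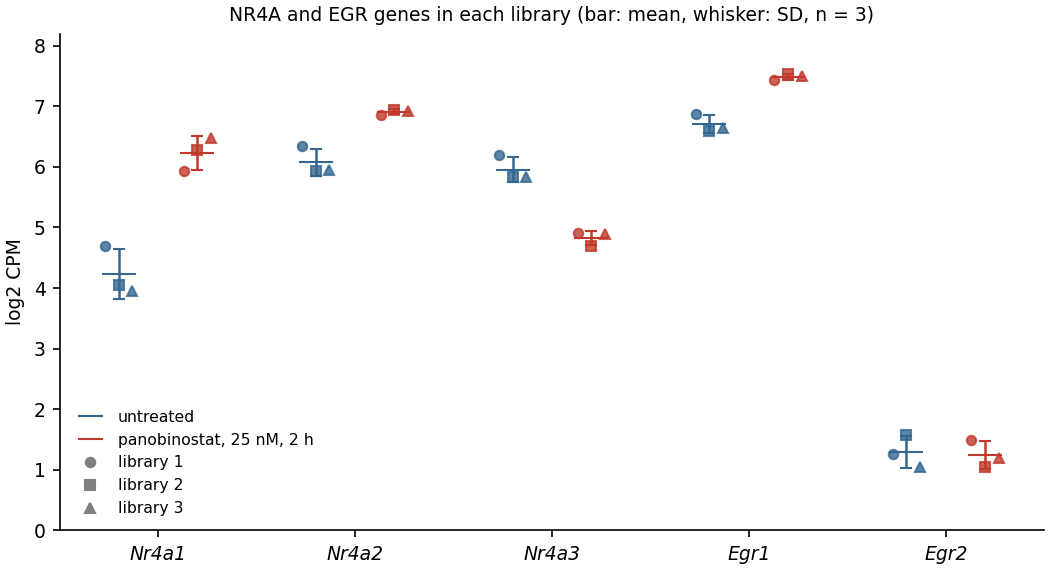
Log2 CPM of each NR4A and EGR gene with a row, in 3 untreated (blue) and 3 panobinostat libraries (red); symbols give the library number, bars the mean and whiskers the SD. Nr4a1 moved from 4.23 to 6.23, Nr4a2 and Egr1 rose by less, Nr4a3 moved down from 5.96 to 4.83, and the groups of Egr2 overlapped.

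Of the 5 tested NR4A and EGR genes, 3 rose and 1 fell at a Benjamini-Hochberg adjusted p under 0.05 in limma, where 38.3% of all tested genes passed, 19.2% upward and 19.0% downward. Libraries were also centred on 236 tested genes whose symbols begin with Rpl or Rps and a digit. That set, called ribosomal protein genes for short, also takes in kinase genes such as Rps6ka1. With this centring 1767 genes rose and 2568 fell, so that 40.8% of calls were rises against 50.3%. In the 4 called NR4A and EGR genes the groups did not overlap, as in 51.4% of all tested genes (25.7% upward and 25.7% downward). With these shares, being called or separated was common in the experiment as a whole. Over all tested genes the median absolute log2 fold change came to 0.40. In each of the 4 called genes untreated library 1 was the highest untreated library, also in Nr4a3, where higher meant farther from the treated level. Without that library the log2 fold changes were 2.23 for Nr4a1, 0.97 for Nr4a2, -1.01 for Nr4a3 and 0.87 for Egr1, and all 4 calls held in every fit run.

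Markers of the T cell lineage and of other cell types moved as well. Summed T cell markers, of the leukaemia's own lineage, ran from 1080 to 1110 CPM in treated and from 1470 to 1580 in untreated libraries. Of these 12 markers 5 fell and 0 rose, and of all tested genes 19.0% fell. The abundant Lck (-0.82) and Cd3d (-0.51) were among those that fell. Changes of Cd3g (0.07), Cd8a (0.06), Cd8b1 (0.23), Cd4 (0.57) and Ptcra (0.47) were positive and did not pass. Cd247 (-0.04) and Thy1 (-0.23) did not pass either. Of the other cell types, summed myeloid markers ran from 1060 to 1150 against 1300 to 1470 CPM (4 of 9 tested fell), and summed erythroid markers from 6310 to 6710 against 6710 to 7960 CPM (4 of 7 fell, 1 rose). Summed B cell markers ran from 60.6 to 69.7 against 74.8 to 79.5 CPM, and 2 of 5 fell. Pecam1, the 1 endothelial marker with a row, fell as well (59.4 to 79.2 against 88.5 to 123 CPM). The fall of Nr4a3 went with these sums and the rises of Nr4a1, Nr4a2 and Egr1 against them. Their part in the results was not tested, and in bulk RNA fewer cells of a type and less RNA per cell cannot be told apart.

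Opposite moves changed the makeup of the NR4A family. The kit reads the 3′ ends of transcripts, so CPM does not scale with transcript length, although priming may differ between genes. In untreated libraries Nr4a2 and Nr4a3 were nearly level, with within-library differences of 0.13, 0.10 and 0.11 on the log2 scale. These were smaller than the spread of either gene between libraries. The differences themselves were alike, with an SD of 0.02 and Nr4a2 the higher gene in each library. In treated libraries Nr4a2 exceeded Nr4a3 by 1.95, 2.24 and 2.04. Nr4a1 was below Nr4a3 by a difference of -1.51, -1.78 and -1.89 in untreated libraries and above it by 1.02, 1.58 and 1.59 in treated libraries. The order within the family was therefore Nr4a2, Nr4a3, Nr4a1 in all 3 untreated libraries and Nr4a2, Nr4a1, Nr4a3 in all 3 treated ones.

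The difference between the changes of Nr4a1 and Nr4a3 was 3.12 on the log2 scale, that between Nr4a2 and Nr4a3 1.96, and that between Nr4a1 and Nr4a2 1.16. Each had an exact two-sided permutation p of 0.10 (adjusted p = 0.10 over 4 within-family pairs), the smallest that 3 libraries against 3 can give. Nr4a1 held 14.4, 12.3 and 11.5% of the summed NR4A CPM in untreated libraries and 29.4, 34.3 and 37.1% in treated libraries. Nr4a3 held 40.9, 42.4 and 42.5% in untreated and 14.5, 11.5 and 12.3% in treated libraries. The share of Nr4a2 differed less, at 45.4 ± 0.604% in untreated and 53.6 ± 2.77% in treated libraries (SD, n = 3). For each share the exact permutation p was 0.10. The summed NR4A level was 180, 135 and 135 CPM in untreated and 207, 227 and 241 CPM in treated libraries, a ratio of means of 1.50 (exact permutation p = 0.10).

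**Figure D2:**
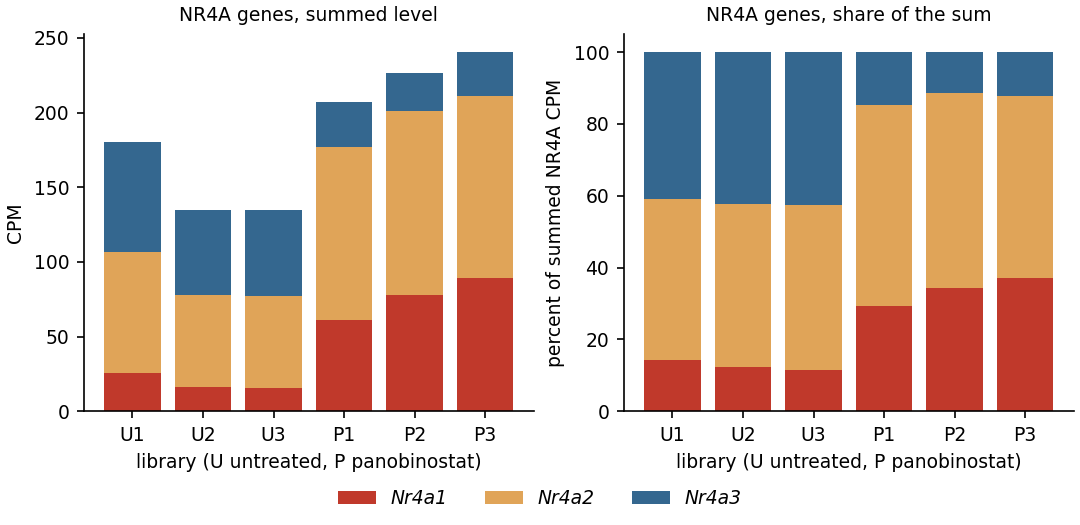
CPM of the 3 NR4A genes stacked by library (left) and as a percent of their sum (right); U1 to U3 are untreated and P1 to P3 panobinostat libraries. Nr4a3 fills 40.9 to 42.5% of the sum in untreated and 11.5 to 14.5% in treated libraries, while Nr4a1 fills 11.5 to 14.4% and 29.4 to 37.1%.

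The EGR family rested on Egr1, the founding member and a direct readout of ERK signalling. Egr1 was at 6.87, 6.60 and 6.65 log2 CPM in untreated and at 7.43, 7.53 and 7.51 in treated libraries. The groups did not overlap, and Egr1 was the most abundant of the 5 genes in all 6 libraries. It rose by 0.79 on the log2 scale (SE 0.09, 95% interval 0.57 to 1.0, limma adjusted p = 0.000945), or 1.72-fold, and 7.9% of 929 genes of like level changed more.

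Egr2, also known as Krox20 and linked to T cell anergy and NKT cell development, was near the lower end of the table. Its values were 1.25, 1.57 and 1.04 log2 CPM in untreated and 1.49, 1.04 and 1.19 in treated libraries, from an estimated 14 to 20 reads per library. The groups overlapped, and the log2 fold change was -0.05 (SE 0.28, limma adjusted p = 0.911). Its 95% interval ran from -0.68 to 0.59 and reached only just into that of Egr1 (0.57 to 1.0). An overlap of intervals is not a test of a difference between the genes. Egr2 held 2.00, 2.97 and 2.01% of summed EGR CPM in untreated and 1.60, 1.10 and 1.24% in treated libraries. The Egr1 minus Egr2 difference was 5.62, 5.03 and 5.61 in untreated and 5.94, 6.49 and 6.32 in treated libraries. It was larger in treated than in untreated libraries by 0.83 on the log2 scale (exact permutation p = 0.10).

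The corepressors that bind EGR proteins both fell. Nab2, itself a target of EGR proteins in a feedback loop, was at 5.43, 5.22 and 5.61 log2 CPM in untreated and at 4.24, 3.94 and 4.05 in treated libraries. No treated library reached an untreated value, and the log2 fold change was -1.35 (SE 0.14, adjusted p = 0.000612 by limma). Nab1 was at 5.96, 5.81 and 5.92 log2 CPM in untreated and at 5.20, 5.23 and 5.29 in treated libraries. Its groups did not overlap either, and its log2 fold change was -0.66 (SE 0.09, adjusted p = 0.00146 by limma). Egr1 thus rose while its corepressor transcripts fell in the same libraries. The Nab1 promoter window held 2 copies of the EGR site GCGTGGGCG, present at 2 or more copies in 0.02% of windows, and that of Nab2 held 0.

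**Figure D3:**
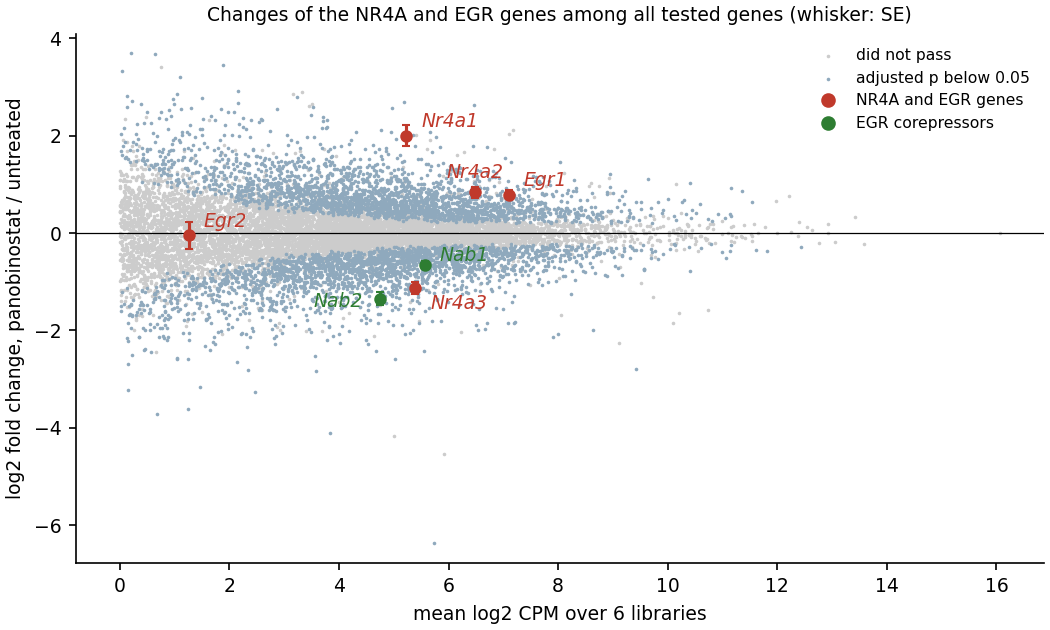
Log2 fold change against mean log2 CPM for 12554 tested genes, with the NR4A and EGR genes in red and the EGR corepressors in green; whiskers are the SE. Nr4a1, at 2.00, lies near the upper edge of genes of its level, Nr4a3 (-1.13) and Nab2 (-1.35) lie low, and Egr2 sits at -0.05 among genes of low level.

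The genes differ in structure as well as in response (GENCODE release M21, the same build). Nr4a1 (chromosome 15, 101254269 to 101274795), Nr4a2 (chromosome 2, 57106830 to 57124003) and Nr4a3 (chromosome 4, 48045153 to 48086447) each have 8 exons in the coding transcript used. Their spans were 20.5, 17.2 and 41.3 kb, against a median of 23.5 kb over 10477 tested coding genes. Egr1 and Egr2 (chromosome 10, 67535475 to 67542188) have 2 exons and span 5.2 and 6.7 kb. The 3′ untranslated regions held 3 copies of the AU-rich pentamer ATTTA in Nr4a1, Nr4a2 and Egr2, 5 in Nr4a3 and 2 in Egr1. The pentamer is part of elements that mark transcripts for rapid decay, and the median over tested genes was 1. Nr4a3, the NR4A gene that fell, had the longest span, the longest 3′ untranslated region (3095 bases) and the most pentamers of the 5. At least as many pentamers were found in 19.2% of tested genes. These counts were not scaled to length. The untranslated regions of Nr4a1, Nr4a2, Egr1 and Egr2 had 543, 1326, 1216 and 1200 bases. Per base Nr4a3 had the fewest pentamers of the 5 and Nr4a1, which rose, the most. No other annotated gene overlapped their exons.

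Transcription factors that act on NR4A and EGR promoters went both ways: 4 rose and 7 fell of 19 tested (57.9% called against 38.3% of all tested genes, median log2 fold change -0.01, against -0.01 for all tested genes). Mef2d, a factor that recruits class IIa HDACs to the Nr4a1 promoter in thymocytes, rose by 0.43 on the log2 scale (SE 0.10, limma adjusted p = 0.0124), and did not pass when libraries were centred on ribosomal protein genes (0.36). Hdac7, the class IIa HDAC that keeps Nr4a1 silent in thymocytes, was at 9.44, 9.46 and 9.24 log2 CPM in untreated and at 8.67, 8.65 and 8.79 in treated libraries. Its groups did not overlap (log2 fold change -0.68, SE 0.08, limma adjusted p = 0.00109). Of the other class IIa HDACs listed, Hdac5 rose (0.91, SE 0.19, limma adjusted p = 0.00803) and Hdac4 stood at 0.16 (SE 0.09); both were added to the named genes after their values were seen. Serum response factor, Srf, rose by 0.31 (SE 0.07), a call lost with that centring (0.24) and without panobinostat library 1 (0.28) or 3 (0.31). Creb1 stood at -0.08 (SE 0.09, limma adjusted p = 0.505). Lower were the CREB relative Crem (-1.01, SE 0.18) and the CREB coactivator Crtc1 (-2.03, SE 0.29, or -1.56 with 1 CPM added). The ETS factor Elk3 (-1.20, SE 0.20) and the SRF coactivator Mkl2 (-1.26, SE 0.16) were lower as well.

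Among partner receptors and coregulators of NR4A proteins, 2 rose and 3 fell of 11 tested (45.5% called against 38.3% of all tested genes, median 0.04 against -0.01). Rxra, an RXR receptor that pairs with Nr4a1 and Nr4a2, stood at 2.17, 2.45 and 2.36 log2 CPM in untreated and at -0.43, 0.21 and -0.52 in treated libraries. Its log2 fold change was -2.57 (SE 0.31, limma adjusted p = 0.000998), and with 1 CPM added to all values it was -1.70. The corepressor Trim28 also fell (-0.29, SE 0.10), and its call was lost without any 1 of panobinostat libraries 1 (-0.30), 2 (-0.30) or 3 (-0.27) or untreated library 3 (-0.19), and in 8 of 16 other fits in all. Rcor1 of the CoREST complex rose (0.48, SE 0.11).

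In the RAS-ERK module 4 rose and 6 fell of 23 tested (43.5% called against 38.3% of all tested genes, median 0.04 against -0.01). The ERK kinase kinase Map2k1 went from 2.72 to 4.08 log2 CPM, a rise of 1.35 (SE 0.19, limma adjusted p = 0.00194). The ERK phosphatase Dusp6, a feedback target of the pathway, rose by 1.52 (SE 0.28), from 3.38, 2.18 and 2.75 log2 CPM in untreated to 4.22, 4.40 and 4.25 in treated libraries. The exchange factors Rasgrp1 (-0.62, SE 0.10) and Sos2 (-0.62, SE 0.11), which load RAS with GTP, and the inhibitor Spred2 (-0.76, SE 0.13) fell. In the calcium, calcineurin and NFAT module 9 rose and 1 fell of 23 tested (43.5% called against 38.3%), with a median log2 fold change of 0.28 against -0.01. Nfatc2 rose from a low level, by 1.96 (SE 0.32, limma adjusted p = 0.0033). The calcium sensor Stim1 (0.44, SE 0.08) and the calcineurin subunits Ppp3ca (0.44, SE 0.09) and Ppp3r1 (0.51, SE 0.11) rose, and the calmodulin gene Calm2 fell (-0.45, SE 0.09).

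Of 36 other immediate early genes tested 9 rose, 3 fell and 24 did not pass. The share called was 33.3% against 38.3% of all tested genes (median 0.01 against -0.01). Rises outnumbered falls among these calls, where over all tested genes 19.2% rose and 19.0% fell. The clock gene Per1 went from 5.08 to 5.98 log2 CPM, a rise of 0.89 (SE 0.09, limma adjusted p = 0.000564). Ier2 (0.80, SE 0.11), Btg2 (0.57, SE 0.08) and Ier5 (0.53, SE 0.08) rose. The ERK phosphatase Dusp4 fell (-1.47, SE 0.27, or -1.01 with 1 CPM added). The AP-1 genes Fos (0.63, SE 0.22, limma adjusted p = 0.0584), Fosb (0.93, SE 0.48), Jun (-0.26, SE 0.15) and Junb (0.02, SE 0.09) did not pass, nor did the phosphatase Dusp1 (-0.01, SE 0.18). Fos passed without untreated library 3 (0.83), and Jun passed without untreated library 1 (-0.39).

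Of genes reported to be bound or induced by EGR proteins in T cells, 2 rose and 3 fell of 16 tested (31.2% called against 38.3% of all tested genes, median -0.12 against -0.01). Id3, an inhibitor of E proteins that Egr1 induces in thymocytes, stood at 4.37, 3.33 and 3.32 log2 CPM in untreated and at 5.90, 6.34 and 6.50 in treated libraries. Its log2 fold change was 2.57 (SE 0.29, limma adjusted p = 0.000899), and untreated library 1 was the untreated library nearest the treated ones, as for Nr4a1. The CDK inhibitor Cdkn1a rose (1.29, SE 0.14), while the lymphoid factor Ikzf1 (-0.59, SE 0.09), the costimulatory receptor Tnfrsf9 (-1.55, SE 0.29, or -1.01 with 1 CPM added) and Nab2 fell. The anergy ligase Cblb stood at -0.06 (SE 0.08, limma adjusted p = 0.579).

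Of genes reported to depend on NR4A proteins in T cells, 2 rose and 7 fell of 19 tested (47.4% called against 38.3% of all tested genes, median -0.47 against -0.01). Downward calls made up 19.0% of all tested genes. The list was not split into genes that NR4A proteins raise and genes they restrain. Its counts and median therefore do not show a gain or loss of NR4A action. Irf4, which NR4A proteins restrain in T cells, rose by 1.36 (SE 0.11, limma adjusted p = 0.000303). The IL-2 receptor chain Il2ra (-1.19, SE 0.12), the Helios gene Ikzf2 (-0.65, SE 0.14) and Runx3 (-0.64, SE 0.10) fell. The IL-7 receptor chain Il7r fell to a low level (-2.32, SE 0.33, or -1.71 with 1 CPM added).

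**Figure D4:**
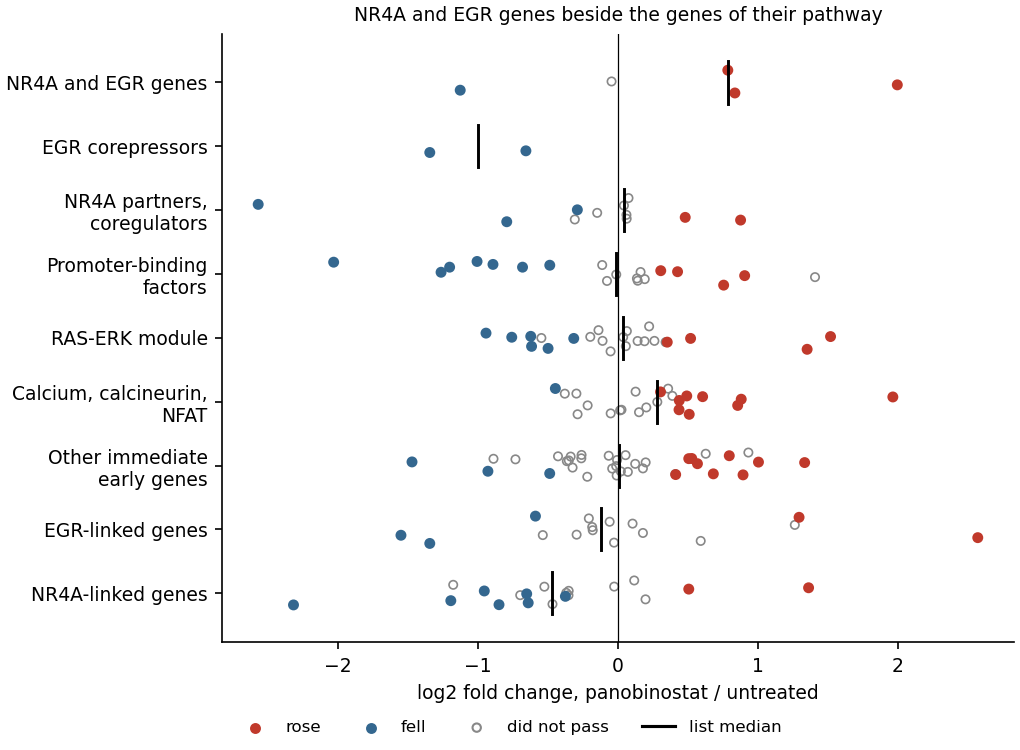
Log2 fold changes of the tested genes of each list, 1 point a gene; filled points passed the test, open points did not, and black lines are list medians. The calcium, calcineurin and NFAT list holds 9 rises and 1 fall, the NR4A-linked list 2 rises and 7 falls, and the other immediate early genes lie on both sides of 0.

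The genes with profiles nearest to each called gene were found by the distance between log2 profiles over the 6 libraries, each centred on its untreated mean. Nearest to Nr4a1 were Sun1 (distance 0.26, Pearson r 0.997), Nfatc2 (0.28, r 0.994) and Ccdc115 (0.29, r 0.995). In all 3, as in Nr4a1, untreated library 1 was the highest untreated and treated library 1 the lowest treated library. Nearest to Nr4a2 were Rrs1 (0.11, r 0.9956), Eya3 (0.11, r 0.998) and Tob2 (0.12, r 0.994). Nearest to Nr4a3 were Gpr171 (0.18, r 0.9935), Zc3h4 (0.21, r 0.990) and Il12rb2 (0.21, r 0.989). Nearest to Egr1 were Utp11 (0.03, r 0.9998), Eya3 (0.06, r 0.998) and Tiprl (0.09, r 0.996). Eya3 stood near both Nr4a2 and Egr1. These likenesses rest on 6 libraries in 2 groups, so most of each correlation is the difference between the groups.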

How the data were processed

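RNA was isolated on columns and 3′ mRNA libraries were made with the QuantSeq kit from 100 ng of total RNA, per the labels' protocols. The submitters' processing notes name cutadapt 1.9, HISAT2 2.1.0, featureCounts of Subread 1.5.0, limma and build mm10. For annotation, strand setting and filters the sources used here give nothing. Values in the 1 table the authors deposited are on a log2 scale, inferred from the values to be log2 CPM, quantile normalized between libraries: their powers of 2 sum to between 994114 and 994182, and 87.6% of sorted rows lay within 0.05 of their mean in all libraries. Columns were matched to samples by treatment name and S number, and library numbers are those in the column names. In 19 rows the symbol had become a date. These rows were kept in the fit and not named.

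Genes with a mean log2 CPM of at least 0 over the 6 libraries were fitted with limma 3.58.1 (lmFit, eBayes with trend) in R 4.3.3, with Benjamini-Hochberg adjustment over all tested genes and a threshold of 0.05, with no pseudocount. Reads per CPM were estimated at 200 steps between distinct values. They count reads, not molecules. Within-family differences and shares used exact two-sided permutation tests over 20 assignments. They were adjusted over 4 pairs and 5 shares. Scripts were tested on simulated data. Python 3.11.15, pandas 2.3.3 and matplotlib 3.10.9 were used.

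The genes, lists and tests were chosen with earlier results of these data known. Named genes are the NR4A and EGR genes, up to 5 called genes with the smallest adjusted p per list, 15 genes always named, and the 3 nearest profiles of each called gene, predicted genes left out. Some named members of the coregulator list are counted but not reported here. Alternatives were other filters, a pseudocount of 1, other scalings and spread models, sample weights, a replicate block, reads recovered from ties, and each library left out.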

Additional observations from a re-analysis of the deposited data

How the results depend on the processing

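The log2 fold changes of Nr4a1, Nr4a2, Nr4a3 and Egr1 kept their direction and stayed past the threshold in all 16 other fits, with largest adjusted p-values of 0.00568, 0.0108, 0.00539 and 0.00666. Leaving out 1 library gave 1.86 to 2.23 for Nr4a1, 0.77 to 0.97 for Nr4a2, -1.19 to -1.01 for Nr4a3 and 0.73 to 0.87 for Egr1, and the other settings gave 1.93 to 2.20, 0.77 to 0.92, -1.19 to -1.05 and 0.72 to 0.83. Egr2 never passed and its sign was not stable: 0.07 with sample weights, and -0.17 to 0.09 with 1 library left out. A filter at a mean log2 CPM of 2 removed Egr2. Of genes that did not pass, Dusp1 also changed sign (0.00 on reads recovered from ties, -0.12 to 0.16 with 1 library left out), as did Junb (-0.04 when centred on ribosomal protein genes, -0.03 to 0.09 with 1 library left out). Without panobinostat library 3, 1587 genes rose against 2416 with all libraries; over the 6 such fits 1587 to 2664 rose. A replicate block by column number gave 4148 called genes against 4806 and changed no call of the NR4A and EGR genes (Nr4a1 2.00). Deviations of same-numbered libraries correlated across genes at -0.044, 0.104 and -0.011, and those of unlike number at -0.158 to 0.152. Each deviation was taken from a mean of 3 libraries, so these values cannot tell whether the numbers pair the libraries. With 1 library left out, 3 libraries against 2, the within-library differences and shares are values with no test. Of 873 values for 55 other named genes, 852 kept direction and call. Egr2 rests on 14 to 20 estimated reads per library, the fewest of the 5 genes.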

Other observations

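Across 10477 tested coding genes, the number of ATTTA pentamers in the 3′ untranslated region went with small differences in the change. Among 3686 genes with 0 pentamers 17.0% rose and 23.3% fell, with a median log2 fold change of -0.063. Among 1938 genes with 3 to 5 pentamers, the range that holds Nr4a1, Nr4a2, Nr4a3 and Egr2, 25.1% rose and 18.4% fell, with a median of 0.054. Among 3297 genes with 1 to 2, as in Egr1, 22.1% rose and 20.4% fell. Among 1556 genes with 6 or more, 366 rose (23.5%) and 280 fell, with a median of 0.046, so the share that rose did not keep growing with the number of pentamers. Nr4a3 fell although the larger share of called genes in its range rose. These are counts over genes, which are not independent replicates, and they were not tested. A longer untranslated region can hold more pentamers, and the groups of genes were not matched for its length.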
